A study of Canis lupus familiaris with 16 samples.

Results

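Promoter peaks that lie outside CpG islands, island shores and enhancers were examined in MethylCap-seq data from healthy dogs and from dogs with high-grade B-cell lymphoma, a fast-growing tumour of B lymphocytes. MethylCap-seq captures fragments of methylated DNA and sequences them, so that a pile of reads, called a peak, marks a methylated stretch of the genome. The members were the peaks that the authors flagged as promoter and left without a flag for CpG island, CpG shore or enhancer. They numbered 4040 of 145240 peaks over 4 peak lists, and 4040 of 15980 promoter peaks. The promoter flag was found on peaks that reach the transcription start or the 3 kb before it.

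The lymphoma group was 5 dogs aged 5 to 13 years, at tumour stages III to V, whose cells were aspirated from enlarged lymph nodes; the breeds given were schnauzer, mixed, dachshund and golden retriever, and 1 dog had none given. The healthy group was 3 dogs aged 2 to 7 years, a mixed breed, a golden retriever and a standard poodle, whose mononuclear cells were separated from blood. Every dog gave 2 libraries, one with the label L and one with the label M-H, which the sources used here do not explain; there were 16 libraries. Each list pools the dogs of 1 group and 1 label, and no value per dog was given. Disease therefore cannot be told apart from tissue (lymph node or blood), age or breed, an aspirate can hold cells other than tumour cells, and no spread between dogs could be measured.

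CpG dinucleotides are rare in most of a mammalian genome and gather in CpG islands, which cover the starts of many broadly expressed genes and are mostly kept free of methylation. Promoters without an island belong more often to genes used in 1 or a few tissues, such as keratins, taste and olfactory receptors, or cytokines, and their few CpGs are commonly methylated in cells that do not use the gene. In cancer the usual pattern described is gain of methylation at islands and loss in CpG-poor DNA. Whether the members are poor in CpG was not measured, since no genome sequence was used here; they are defined by the missing flags alone, and no sequence is printed. Of the members, 1.43% (lymphoma M-H) to 2.65% (healthy L) had an island or shore peak of any list within 2 kb.

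The lymphoma L list held 1385 members, the healthy L list 1433, the lymphoma M-H list 841 and the healthy M-H list 381. They made up 24.9% of promoter peaks in the lymphoma L list (95% Wilson interval 23.7 to 26.0) and 39.5% in the healthy L list (37.9 to 41.1). In the M-H lists they made up 17.1% (16.0 to 18.1) of promoter peaks for lymphoma and 20.6% (18.8 to 22.5) for healthy dogs. The higher share in healthy L came with fewer promoter peaks on islands or shores, 2124 against 4091 in lymphoma L, while the numbers of members were close. All intervals cover counting error only, and read depth is unknown.

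The members were shorter than island or shore promoter peaks and more often assigned to genes without a name. Their median length was 601 bp in lymphoma L, 503 bp in healthy L, 652 bp in lymphoma M-H and 485 bp in healthy M-H, against 811, 608, 839 and 654 bp on islands or shores. Genes known only by a LOC number took 52.9% to 58.3% of the members of a list and 33.7% to 48.4% of the island or shore promoter peaks. Long non-coding RNA genes took 29.1% to 34.1% of the members against 19.7% to 28.5%, and protein-coding genes 40.9% to 48.4% against 52.1% to 65.4%. Of the members, 79.7% to 86.0% were annotated upstream of the gene rather than in its exons or introns. The transcription start itself lay inside 37.3% of members in lymphoma L and 42.1% in lymphoma M-H, against 51.7% and 58.6% of island or shore peaks. In healthy L the start lay inside 31.2% of members and 31.1% of island or shore peaks.

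Between lymphoma and healthy dogs, the members of the L lists were shared about as often as peaks anywhere in the genome. Of the 1385 lymphoma L members, 476 (34.4%, 31.9 to 36.9) had no overlapping healthy L peak, beside 36.9% of all lymphoma L peaks. Of the 1433 healthy L members, 524 (36.6%, 34.1 to 39.1) had no lymphoma L peak, beside 35.2% of all healthy L peaks. Both intervals reached the share of the whole list.

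Promoter peaks on islands or shores departed from that background in opposite directions. In lymphoma L, 55.5% (53.9 to 57.0) of them had no healthy counterpart, and in healthy L only 21.4% (19.7 to 23.2) had no lymphoma counterpart. In the full L lists the excess of lymphoma peaks over healthy peaks at promoters was thus found on islands and shores and not among the members. That depended on the threshold. At a fold enrichment of at least 8 the members numbered 850 in lymphoma L and 694 in healthy L. Then 44.7% (41.4 to 48.1) and 32.6% (29.2 to 36.1) had no counterpart, beside 49.2% and 31.9% of all peaks. A lymphoma excess was then seen among the members too, as over all peaks. That cut left 28119 lymphoma L and 21035 healthy L peaks, so the lists compared were of unequal length. With both L lists held to the same length by fold enrichment, the shares of members were 33.8% (lymphoma) and 37.1% (healthy), beside 36.1% and 35.6% of all peaks. At that setting no lymphoma excess was seen among the members. With all deposited peaks, the intervals of members and of island or shore peaks did not overlap in either list.

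In the M-H lists, 490 of 841 lymphoma members (58.3%, 54.9 to 61.6) had no healthy M-H peak, beside 48.8% of all lymphoma M-H peaks and 63.1% (61.6 to 64.6) on islands or shores. Of the 381 healthy M-H members, 59 (15.5%, 12.2 to 19.5) had no lymphoma M-H peak, beside 9.58% of all peaks and 6.93% (5.73 to 8.36) on islands or shores. The healthy M-H list is much shorter than the lymphoma one, 19867 against 34939 peaks, which bears on both shares. With both M-H lists held to the same length by fold enrichment the lymphoma share was 39.1% (34.7 to 43.7) and the healthy share 34.1% (29.5 to 39.0), beside 31.0% and 30.7% of all peaks. At equal length the lymphoma members lay above the background of their list, and the intervals of the 2 groups overlapped.

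**Figure D1:**
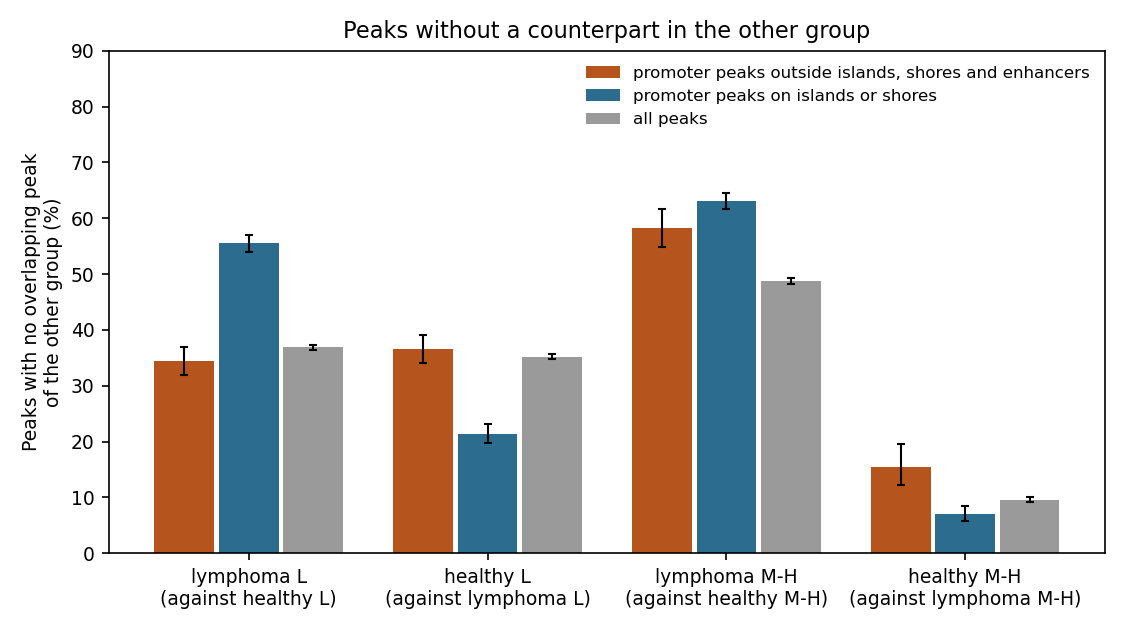
Share of peaks in each of the 4 pooled lists with no overlapping peak of the other group in the same label, in percent, for members (promoter peaks outside islands, shores and enhancers), island or shore promoter peaks and all peaks; error bars are 95% Wilson intervals. In lymphoma L the members, at 34.4%, sit beside all peaks (36.9%) and under island or shore peaks (55.5%); in healthy L the members (36.6%) sit above island or shore peaks (21.4%).

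Where a member had a counterpart in the other group, that counterpart was mostly a member as well: 877 of 909 in lymphoma L, 876 of 909 in healthy L, 316 of 351 in lymphoma M-H and 316 of 322 in healthy M-H. Only 1 to 6 members of a list overlapped an island or shore peak of the other group. The flags describe places in the genome, so overlapping peaks largely share them, and these counts are no result about the groups of dogs.

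Between the 2 labels, members were more often found in L alone than other promoter peaks were. Of the lymphoma L members, 639 (46.1%, 43.5 to 48.8) had no lymphoma M-H peak, beside 36.8% of all lymphoma L peaks and 18.9% (17.8 to 20.2) on islands or shores. Of the healthy L members, 1140 (79.6%, 77.4 to 81.6) had no healthy M-H peak, beside 71.6% of all and 56.9% (54.8 to 59.0) on islands or shores. In the reverse direction, 99 of 841 lymphoma M-H members (11.8%, 9.77 to 14.1) had no lymphoma L peak, beside 17.9% of all peaks. Of the healthy M-H members, 108 of 381 (28.3%, 24.1 to 33.1) had no healthy L peak, beside 36.7% of all. In both groups of dogs the members were thus tilted towards L and the island or shore promoters were not. The L and M-H libraries come from the same dogs, and the 4 shares are not independent of each other.

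Joined across the lists by overlap, the 4040 members formed 2075 loci, of which 982 (47.3%) belonged to a gene with a name other than a LOC number. A locus was counted in a list where any peak of that list overlapped it. The most frequent pattern was a peak in healthy L alone, at 511 loci (24.6%, 22.8 to 26.5), beside 22.5% of all merged peak loci of the genome and 7.34% of 5393 island or shore promoter loci. Peaks in both L lists and neither M-H list came next, at 421 loci (20.3%), against 6.17% of island or shore loci. All 4 lists held a peak at 275 loci (13.3%, 11.9 to 14.8), beside 17.1% of all merged loci. Both lymphoma lists and no healthy list held a peak at 206 loci (9.93%, 8.71 to 11.3), beside 9.7% of all merged loci and 27.6% on islands or shores. A peak in both healthy lists and no lymphoma list was rare, at 9 loci (0.434%), beside 0.362% of all.

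Summed over both labels, 481 loci (23.2%, 21.4 to 25.0) had peaks in lymphoma lists only, beside 23.9% of all merged loci, and 540 (26.0%, 24.2 to 28.0) in healthy lists only, beside 24.0%. On islands or shores these shares were 45.2% and 8.66%. Peaks in L lists only were found at 54.6% of loci (52.5 to 56.7), beside 45.9% of all merged loci, and in M-H lists only at 5.59% (4.68 to 6.66), beside 9.98%. Summed in this way, promoter loci without island or shore flags were split between the groups of dogs nearly as all merged loci were, and leaned to the L label. The interval for healthy lists only lay just above the share of all merged loci. In the M-H lists taken alone, the members departed from all peaks, as given above.

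**Figure D2:**
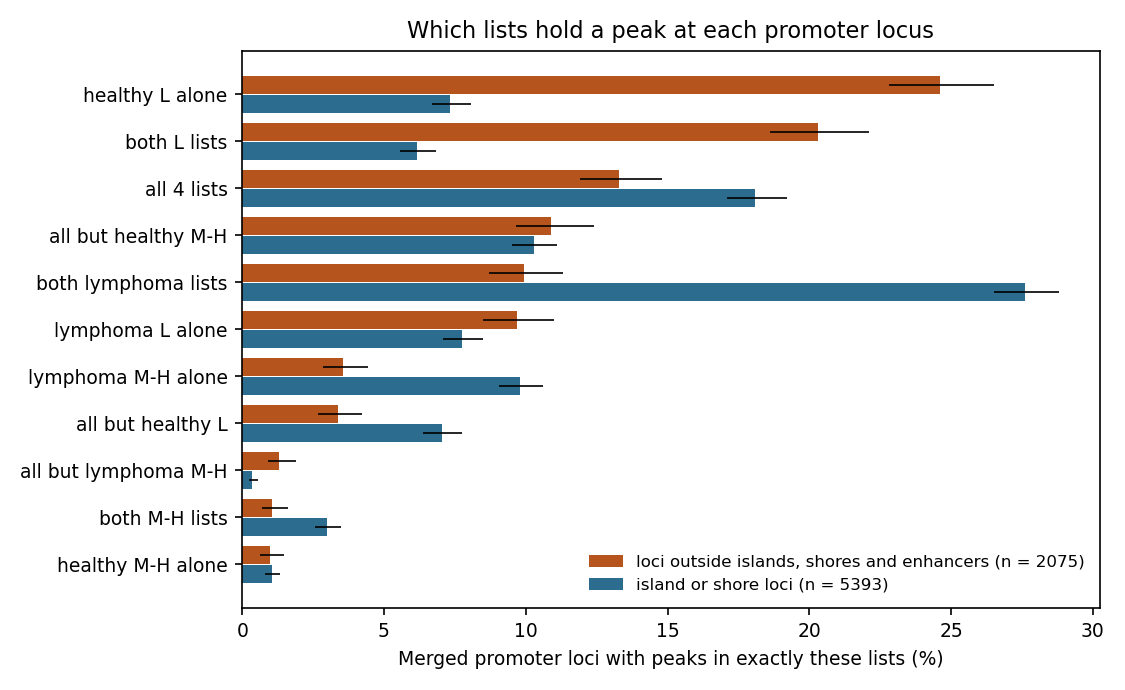
Share of merged promoter loci, in percent of each class, by which of the 4 lists hold a peak there, without the rarest patterns; error bars are 95% Wilson intervals. Healthy L alone leads among loci outside islands, shores and enhancers (24.6%), whereas both lymphoma lists lead on islands or shores (27.6%).

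For the healthy L members the share differed with the position in the promoter. Those spanning the transcription start lacked a lymphoma L peak in 25.3% of cases (21.5 to 29.5), and those beside it in 41.7% (38.6 to 44.8). By midpoint the share was 43.2% (38.3 to 48.3) at 2 to 3 kb upstream, 29.5% (25.0 to 34.5) within 250 bp of the start, and 10.7% (5.5 to 19.7), or 8 of 75, more than 250 bp downstream. Most healthy L members lay away from the start whether or not they had a counterpart. Of those without a lymphoma L peak 21.6% spanned it, against 36.7% of those with one. Members with the midpoint beyond 3 kb upstream lacked a lymphoma L peak in 35.8% of cases (27.4 to 45.1). For the island or shore peaks of healthy L the share was 14.0% beyond 3 kb, 28.7% at 2 to 3 kb, 32.1% at 1 to 2 kb upstream and 7.5% within 250 bp, so it was also lower near the start than at 1 to 2 kb, but lower again farthest out.

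The lymphoma L members showed no such gradient: 34.7% (30.7 to 38.9) of those spanning the start and 34.2% (31.1 to 37.4) of the rest had no healthy L peak. In lymphoma M-H the 2 shares were 60.5% (55.3 to 65.4) and 56.7% (52.2 to 61.0). In healthy M-H they were 10.7% (6.39 to 17.5) and 17.7% (13.5 to 22.8), with overlapping intervals. Among merged loci, 53.9% of those in both lymphoma lists spanned a start in some list, against 21.7% of those in healthy L alone and none of the 9 in both healthy lists.

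**Figure D3:**
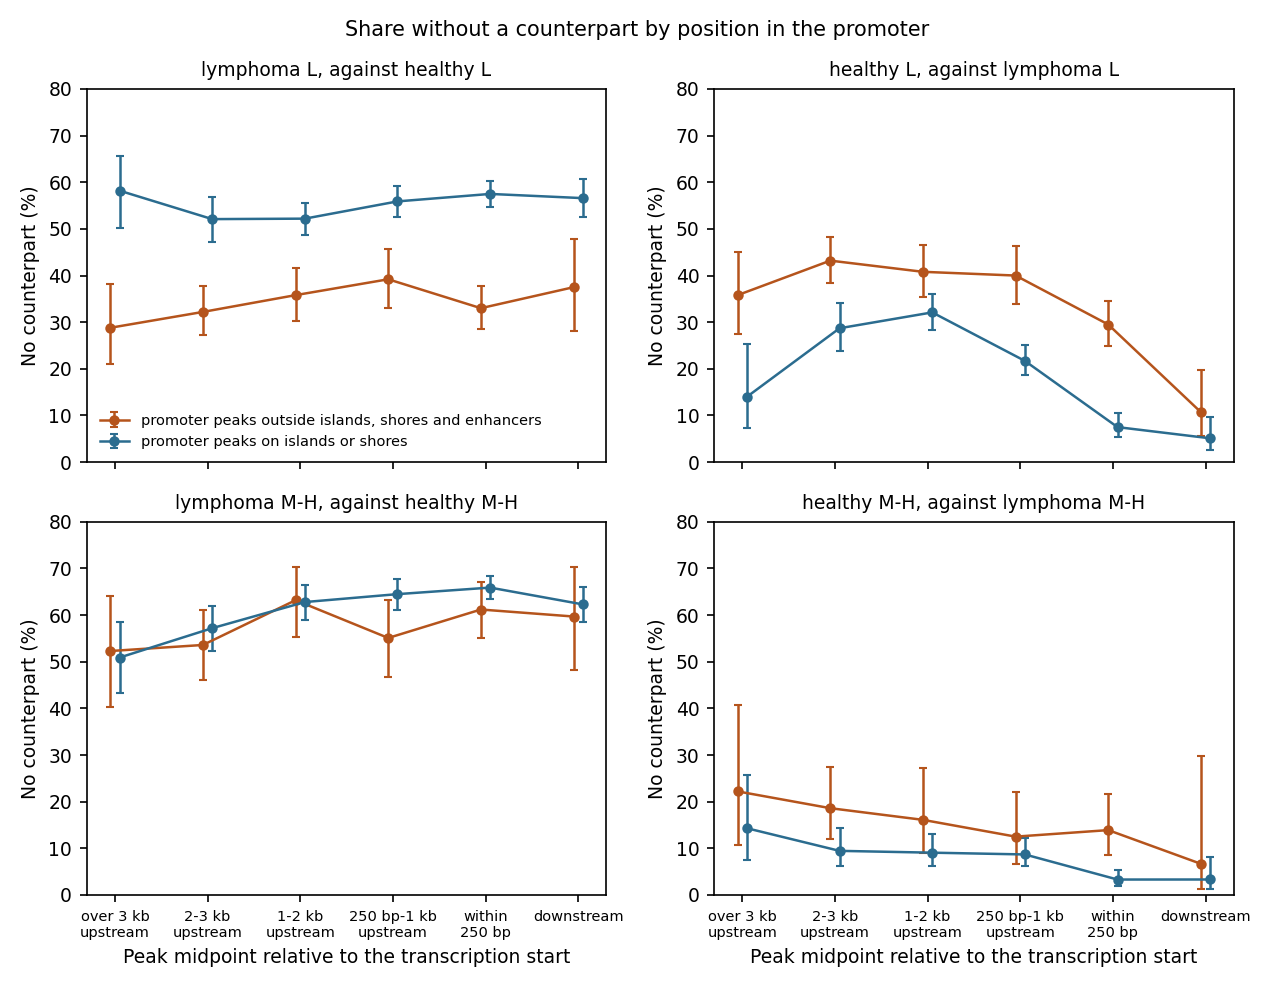
Share of promoter peaks with no overlapping peak of the other group, in percent, by the place of the peak midpoint relative to the assigned transcription start, in the 4 lists; error bars are 95% Wilson intervals. In healthy L the members fall from 43.2% at 2 to 3 kb upstream to 29.5% within 250 bp of the start, while lymphoma L members stay between 28.8% and 39.2%.

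The fold enrichment of a peak is the authors' own value. Apart from the alternative cut at 8, applied alike to every list, it was used only to rank peaks within a list. No list holds a value below 6, and the background behind the value is not stated. The median over members was 8.86 (quartiles 7.2 and 11.9) in lymphoma L, 7.85 (6.92 and 9.53) in healthy L, 9.62 (7.47 and 13.2) in lymphoma M-H and 7.94 (6.76 and 9.74) in healthy M-H. For island or shore promoter peaks of the same lists the medians were 9.11, 8.0, 10.5 and 8.32. The median of the members was thus lower than that of island or shore peaks in each list, though only slightly in the L lists. There the quartiles did not all follow. The upper quartile of lymphoma L was 11.9 for members and 11.5 on islands or shores, and the lower quartile of healthy L 6.92 and 6.89.

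Members without a counterpart in the other group were the weaker ones. In lymphoma L their median fold enrichment was 7.59, against 10.1 for members with one, and in healthy L 6.95 against 8.59. In lymphoma M-H the medians were 8.25 and 12.5, and in healthy M-H 6.68 and 8.36. A weak peak in 1 list can face a stretch just under 6 in the other, so a missing counterpart does not show that methylation is missing there.

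**Figure D4:**
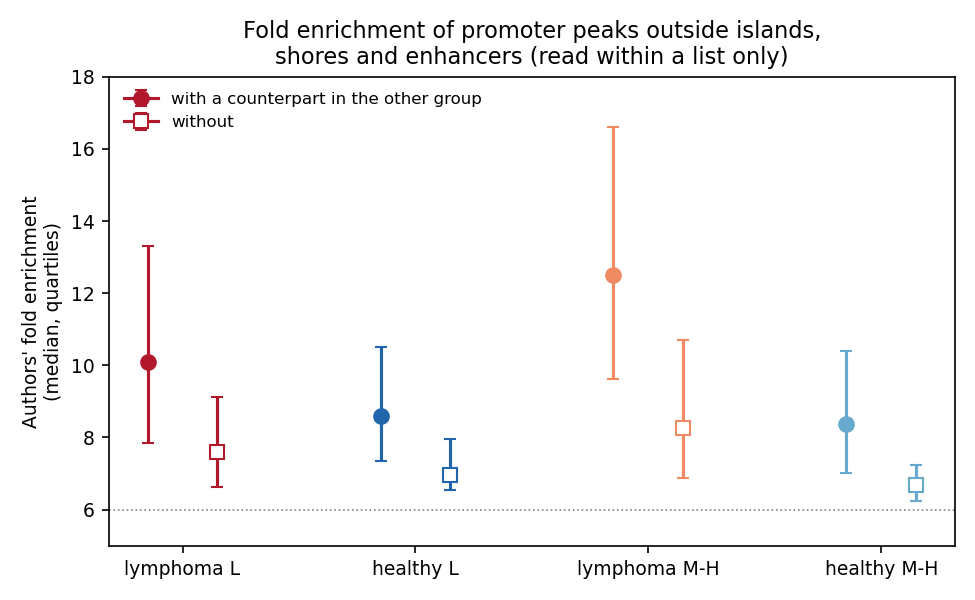
Median and quartiles of the authors' fold enrichment for members with (filled) and without (open) an overlapping peak of the other group, in each list; the dotted line is the lowest deposited value, 6. In each list the open symbol is lower, as with 7.59 against 10.1 in lymphoma L; heights are read within a list only.

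Counted by gene, 268 of the 1353 genes with a lymphoma L member (19.8%) had no healthy L peak of any kind assigned to them or overlapping the member, beside 25.3% of genes with any promoter peak in that list. For healthy L it was 297 of 1406 genes (21.1%), beside 13.9%. In M-H it was 361 of 824 genes (43.8%) for lymphoma, beside 42.4%, and 37 of 380 (9.74%) for healthy dogs, beside 4.71%. By this count, with all deposited peaks, the healthy L members stood above their background and the lymphoma L members below it. The M-H counts turn on the list lengths: with both M-H lists held to the same length they were 131 for lymphoma and 97 for healthy dogs. With both L lists held to the same length the counts were 259 for lymphoma L and 302 for healthy L. At a fold enrichment of at least 8 in every list the counts were 282 for lymphoma L and 154 for healthy L, the reverse order of the main counts. In M-H they were 322 for lymphoma and 10 for healthy dogs. No background share of genes was computed at that setting. With all deposited peaks, genes with island or shore promoter peaks were in healthy L alone less often than member genes, at 8.61%, and in lymphoma L alone more often, at 27.3%.

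The loci ranked highest over all 4 lists included several microRNA genes. Of the 88 named loci with a member in every list, the 10 with the highest mean rank of fold enrichment were FXYD5, FSCB, MIR8799E-1, OSBPL8, MIR8799G, MIR8791A, MIR8799E-2, MIR8799D, FBXW4 and MIR8799A. FXYD5 encodes a small regulator of the sodium pump that loosens cell adhesion. Its peak, 536 bp at chr1:117424193-117424728 (CanFam3.1, minus strand gene, upstream), reached 15.6 in lymphoma L, 19.7 in healthy L, 18.6 in lymphoma M-H and 22.2 in healthy M-H. That placed it at percentile 99.9 of both healthy lists and at percentiles 91.2 and 93.4 of the lymphoma lists. FSCB, a protein of the sperm tail, had a peak upstream at chr8:22035010-22035734 with 19.0, 12.7, 17.8 and 12.6 in the same order of lists. OSBPL8, a lipid transfer protein of the endoplasmic reticulum, had one upstream at chr15:19443335-19443932 with 20.2, 15.9, 18.7 and 10.8. FBXW4, an F-box subunit of ubiquitin ligases, had one across its start at chr28:14336628-14337279 with 14.8, 15.1, 15.9 and 11.2. All 4 genes sat at or above percentile 80.6 of every list.

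The miR-8799 family, a set of dog microRNA genes spread over 6 chromosomes, had peaks in nearly every list. All 8 of its genes with a peak were members, each peak spanned the annotated start, and 7 of the 8 loci had a peak in all 4 lists. The exception was MIR8799F (chr6:40558860-40559545), with 13.8 in lymphoma L, 11.9 in healthy L, 9.35 in lymphoma M-H and no healthy M-H peak. The highest in the lymphoma lists was MIR8799E-1 (chr6:41016811-41017494), with 20.1, 11.4, 20.1 and 12.1 in lymphoma L, healthy L, lymphoma M-H and healthy M-H. MIR8799G (chr3:32683884-32684637) followed with 19.4, 11.0, 19.3 and 12.1, and the lowest in the L lists was MIR8799C (chr10:37130975-37131706) with 12.3, 6.95, 16.5 and 7.59. The start of a microRNA gene here is that of its hairpin, which can lie far from the start of the transcript it is cut from. The family was picked out after its values were seen, and reads of near-identical copies can be split or placed on the wrong copy.

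Over all microRNA genes, 58 of the 134 with a promoter peak (43.3%) were members, beside 27.6% of all genes with one (2032 of 7359). Their 58 loci included 15 with peaks in all 4 lists, 13 in lymphoma lists only and 9 in healthy lists only, that is 25.9% in all 4 beside 13.3% of all member loci and 17.1% of all merged loci. The miR-8799 family, picked out after its values were seen, gave 7 of the 15 loci in all 4 lists. The share of 25.9% is therefore not read as a trait of microRNA genes in general. MIR1343 (chr18:32989856-32990415) had peaks in L alone, at 18.0 in lymphoma and 16.8 in healthy dogs. MIR200C, of the miR-200 family that holds cells in an epithelial state, had a peak in lymphoma M-H alone, at 6.85. MIR34A, a microRNA induced by p53, had weak peaks of 6.47 in lymphoma L, 6.24 in healthy L and 6.43 in lymphoma M-H. Both values and patterns differed widely among these genes.

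The highest single values among named genes also came from loci shared between the groups. In lymphoma L they were FMO5 (21.7), NPTN (21.1), DNHD1 (20.7), ACVR1 (20.4) and OSBPL8 (20.2). ACVR1 is a receptor for bone morphogenetic proteins, and its peak at chr36:3818244-3818903 also reached 11.4 in healthy L, 18.5 in lymphoma M-H and 8.63 in healthy M-H. In healthy L they were FXYD5, MIR1343, DNHD1 (16.2), OSBPL8 and AMDHD1 (15.9), the last an enzyme of histidine breakdown. In lymphoma M-H they were PLEKHG7 (22.5), SEMA3A and HNMT (20.4 each), MIR8799E-1 and OR1K1 (19.7). SEMA3A is an axon guidance factor and HNMT inactivates histamine. In healthy M-H they were FXYD5, OR1K1 (17.0), MIR8791A (15.1), PLEKHG7 (14.7) and MIR8849 (14.5). Each of these genes had a peak in both groups of dogs, though not under both labels in each group.

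At 97 named loci both lymphoma lists held a member and neither healthy list a peak; with lymphoma peaks of any class counted there were 105. The 10 ranked highest of the 97 were KIAA1755, OLFM3, RILPL1, SLC16A10, CAND2, ADAMTS12, ENG, ADHFE1, LMCD1 and TM6SF2, and 9 of the 10 peaks spanned the transcription start, SLC16A10 being the exception. KIAA1755 (chr24:26745725-26746391) reached 16.4 in lymphoma L and 19.3 in lymphoma M-H, at percentiles 93.3 and 95.7 of these lists. OLFM3, a secreted protein of brain and retina, reached 14.4 and 18.3 at chr6:48259019-48259557. ENG, the endoglin co-receptor for transforming growth factor beta on endothelium, reached 13.3 and 15.0 at chr9:55558201-55558870. These were strong peaks of the lymphoma lists with no healthy peak of 6 or more.

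The others of this set were of like rank. RILPL1, which binds Rab proteins, reached 16.6 in L and 16.5 in M-H, and SLC16A10, a transporter of aromatic amino acids, 13.8 and 17.4. CAND2, an exchange factor for cullin ligases, reached 13.3 and 16.2, and ADAMTS12, a secreted metalloprotease, 12.8 and 16.2. ADHFE1, a mitochondrial enzyme, reached 12.3 and 19.6, LMCD1, a LIM-domain cofactor, 12.1 and 18.3, and TM6SF2, a liver protein of lipoprotein secretion, 13.5 and 13.9. All 10 stood between percentiles 74.0 and 96.4 of their lists.

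At 5 named loci both healthy lists held a member and neither lymphoma list a peak, and none of the 5 spanned a start. IRAK4, the kinase that carries signals from Toll-like and interleukin-1 receptors, had the highest value of the 5, upstream at chr27:10342167-10342615 with 11.0 in healthy L and 6.68 in healthy M-H. CD44, the hyaluronan receptor of lymphocytes and many other cells, had one upstream at chr18:32829112-32829797 with 6.23 and 7.1. MESP1, a transcription factor of early heart mesoderm, had 6.97 and 6.63, and PLPP5, a lipid phosphatase, 8.99 and 6.21. The last, at 8.72 and 7.04, was assigned to the transfer RNA symbol TRNAK-CUU, which several gene copies share, so its distance to a start is uncertain. With healthy peaks of any class counted there were 6 such loci. The other, looked up after its values were seen, was assigned to C7, a complement component (chr4:68505681-68506072), with 8.59 in healthy L, where the peak was not a member, and 9.15 in healthy M-H. It stood at percentiles 62.7 and 64.2, whereas the highest of the 5 in healthy M-H, that of CD44, stood at percentile 28.6.

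**Figure D5:**
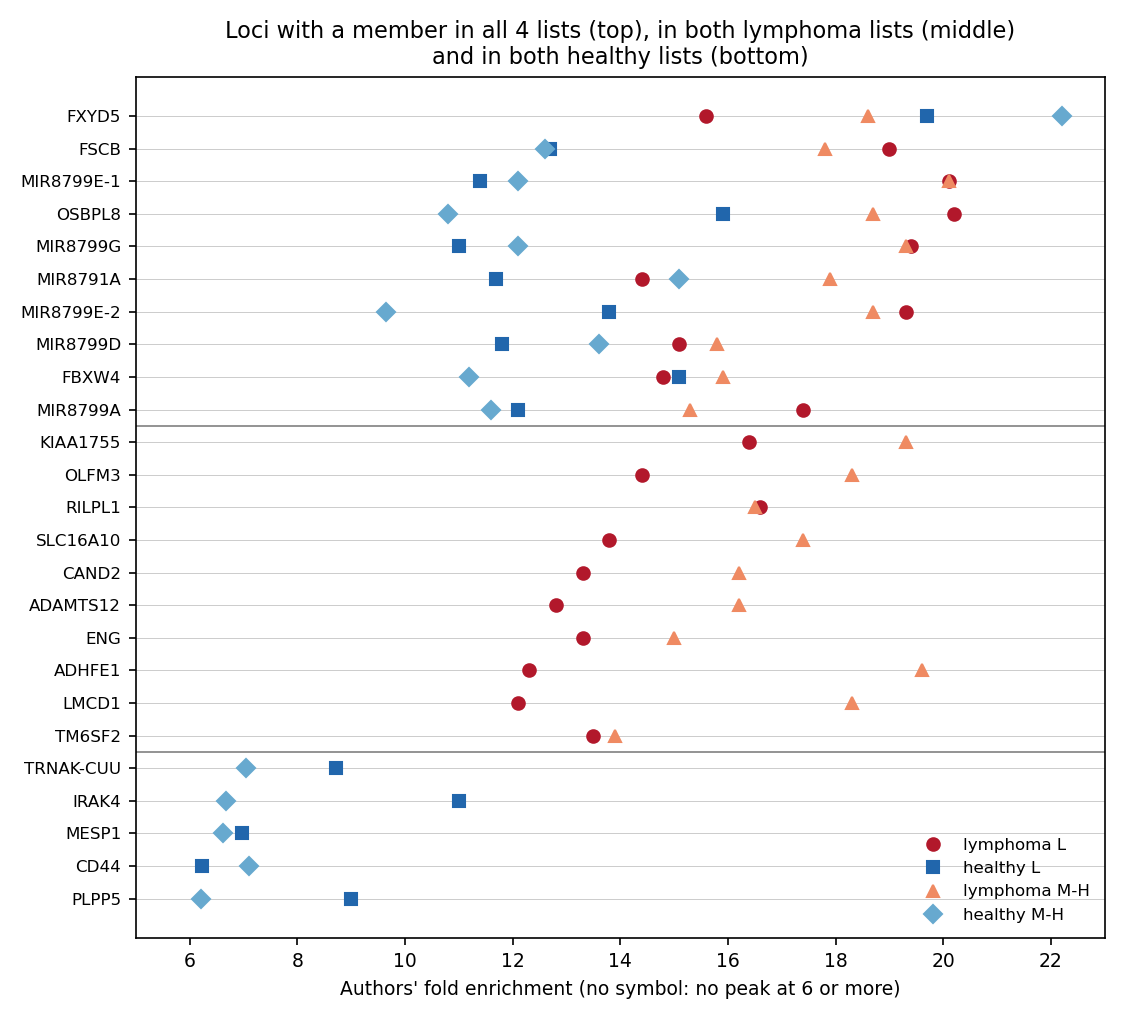
Authors' fold enrichment at the 10 loci ranked highest with a member in all 4 lists (top), the 10 ranked highest with a member in both lymphoma lists and no healthy peak (middle) and the 5 with a member in both healthy lists and no lymphoma peak (bottom); a missing symbol means no peak at 6 or more. KIAA1755 reaches 19.3 in lymphoma M-H, whereas the highest value among these 5 is 11.0, for IRAK4; distances between symbols of different lists show no change in methylation.

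Families of sensory and barrier genes were well represented, and those set by gene description were grouped after their values were seen. Here and in the gene lists below, a gene given in 1 group only is so at the promoter locus described. Other peaks assigned to it can lie elsewhere. Of 36 olfactory receptor genes with a promoter peak, by gene description, 30 (83.3%) were members, beside 27.6% of all genes, and only 4 of the 30 peaks spanned the start. Their loci were in all 4 lists in 11 cases (36.7%), beside 13.3% of all member loci, in lymphoma lists only in 2 and in healthy lists only in 5, beside 23.2% and 26.0% of all member loci. OR1K1 (chr9:59973370-59974364) had peaks of 12.3 in lymphoma L, 7.52 in healthy L, 19.7 in lymphoma M-H and 17.0 in healthy M-H. The taste receptors TAS2R41 and TAS2R1 had peaks in lymphoma L (10.4 and 9.85), healthy L (8.23 and 7.36) and lymphoma M-H (6.87 for both). In the list of olfactory, taste and vomeronasal receptors defined by symbol, 12 of 14 genes with a promoter peak were members, beside 21.5% of all genes without a LOC number, with 1 locus in lymphoma lists only, 6 in healthy lists only and 5 in both, where all member loci stood at 23.2%, 26.0% and 50.8%.

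Of the 21 keratin genes with a promoter peak, 10 (47.6%) were members, beside 21.5% of all genes without a LOC number. Keratins are the filament proteins of epithelia, hair and skin. Their loci were in lymphoma lists only in 2 cases and in both groups in 8, and no locus was in healthy lists only, beside 23.2%, 50.8% and 26.0% of all member loci; 10 loci are too few to read a split from. Of the 10, 9 spanned the start. KRT14, of the basal layer of skin, had peaks of 14.4 in lymphoma L, 8.53 in healthy L, 10.7 in lymphoma M-H and 8.88 in healthy M-H at chr9:21190546-21191394. KRT6B (chr27:2591925-2592652) had 10.7, 6.9, 12.7 and 7.3 in the same order. KRT16 was found in lymphoma only, at 10.3 in L and 8.47 in M-H, as was KRT1, at 7.36 in L. Of the 10 keratin loci, 7 lay in 1 window of 1 Mb on chromosome 27, which with 8 member loci was among the densest of 1136 windows that held any; the median window held 1.

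Of 37 cytokine, chemokine and receptor genes with a promoter peak, 16 (43.2%) were members, beside 21.5% of all genes without a LOC number. Of their loci 5 were in lymphoma lists only, 6 in healthy lists only and 5 in both, beside 23.2%, 26.0% and 50.8% of all member loci. IL20RA, a receptor chain for cytokines of the interleukin-20 group, was in lymphoma only, at 9.95 in L and 14.3 in M-H across its start. The chemokine genes CCL1 and CCL2 were in healthy L only, at 6.81 and 7.36 upstream, as was the chemokine receptor XCR1 at 6.54. IL1R1, the interleukin-1 receptor, was in both, at 12.8 in lymphoma L, 11.8 in healthy L and 8.8 in lymphoma M-H. IFNA7 (chr11:40862545-40863122), a type I interferon, had 15.2 in lymphoma L, 15.8 in healthy L and 6.76 in healthy M-H.

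Interferon alpha genes and NK-lysin-like genes, both small clusters of similar copies, were looked at after their values were seen. All 5 interferon alpha genes with a promoter peak, on chromosome 11, were members and had a peak in both groups. All 4 NK-lysin-like genes, which encode a peptide of cytotoxic lymphocytes that attacks microbes, were members on chromosome 17 and none of their peaks spanned the start. Each had a healthy L peak, at 11.9 for LOC111090436, 10.2 for LOC612025, 7.35 for LOC102156836 and 11.5 for LOC100685535. Lymphoma L peaks were found at LOC612025 (10.5) and LOC100685535 (9.71), and at the other two no lymphoma peak was found. Reads of similar copies may be misplaced here too.

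The B-cell genes are of interest because the tumour is of B cells, while blood mononuclear cells hold B cells as a minority. Peaks were assigned to 12 of 16 B-cell markers, 3 of which had a promoter peak. All 3 were members, beside 21.5% of all genes without a LOC number, but 3 genes are too few to read a share from. CD79B, a signalling chain of the B-cell receptor, had a promoter peak in lymphoma only, at 10.4 in L and 6.87 in M-H, upstream at chr9:11846855-11847494. A healthy M-H peak outside this locus was also assigned to CD79B. SPIB, a transcription factor of B cells, had a peak in lymphoma L alone, at 7.58 upstream. CD79B stood at percentile 64.1 of lymphoma L and SPIB at percentile 31.8. In DNA from mixed cells, methylation in more cells of a type and more cells of that type cannot be told apart.

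Markers of the other blood and node cells with a promoter peak were few. Their shares of members are read beside 21.5% of all genes without a LOC number, and the counts are too small to set apart from it. Among T-cell markers, 2 of 9 genes with a promoter peak (22.2%) were members. CD247, a chain of the T-cell receptor complex, had 7.69 in lymphoma L, 10.5 in lymphoma M-H and 8.62 in healthy M-H. The CD5 locus had a peak in healthy L alone, at 6.91, and a lymphoma L peak outside this locus was assigned to CD5. ITGAM was the 1 member of 4 monocyte and granulocyte genes with a promoter peak, at 6.16 in lymphoma L. VWF, made by endothelium, was the 1 member of 6 stromal and endothelial genes, with 9.5 in lymphoma L, 6.53 in healthy L, 9.51 in lymphoma M-H and 6.63 in healthy M-H across its start. None of the 3 natural killer and cytotoxic genes with a promoter peak was a member.

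Germline and meiosis genes, which somatic cells keep silent, were mostly on islands or shores: 5 of 41 with a promoter peak (12.2%) were members, beside 21.5% of all genes without a LOC number. All 5, NANOG, HORMAD1, LDHC, TEX11 and TDRD5, had a peak in both groups, and no locus was in 1 group only. HORMAD1, a protein of meiotic chromosomes, had 17.1 in lymphoma L, 9.22 in healthy L and 16.0 in lymphoma M-H. NANOG, a factor of pluripotent cells, had 8.89 in lymphoma L, 8.04 in healthy L, 6.6 in lymphoma M-H and 6.47 in healthy M-H. LDHC, the sperm form of lactate dehydrogenase, had 16.7, 11.4 and 9.62 in the first 3 of these lists.

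Solute carriers, the membrane transporters, had 20 members among 88 genes with a promoter peak (22.7%), near the 21.5% of all genes without a LOC number. Of their loci 7 were in lymphoma lists only, 3 in healthy lists only and 9 in both, beside 23.2%, 26.0% and 50.8% of all member loci. SLC12A5, a chloride carrier of neurons, was in lymphoma only, at 16.9 in L and 13.2 in M-H. SLC1A6, a glutamate carrier, was in both, at 20.0 in lymphoma L, 14.5 in healthy L and 7.7 in lymphoma M-H. SLC1A7 was in healthy L alone at 9.41. Zinc finger genes of the ZNF series had 14 members of 77 (18.2%), near the same background, with 4, 3 and 8 loci in lymphoma lists only, healthy lists only and both.

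The remaining gene lists were small, and their shares are read beside 21.5%, the share of members among all genes without a LOC number that had a promoter peak. Collagens had 1 of 18 (5.56%), COL8A1, whose locus had peaks in lymphoma lists only, at 12.3 in L and 12.4 in M-H. A healthy L peak outside this locus was also assigned to COL8A1. Potassium channels had 3 of 37 (8.11%), ADAM and ADAMTS proteases 2 of 17 (11.8%) and ribosomal proteins 3 of 18 (16.7%), all under that share. Cytochrome P450 enzymes, with 2 of 11 (18.2%), and C-type lectins, with 1 of 5 (20.0%), lay near it, and serpins, with 2 of 6 (33.3%), above it. Toll-like and Fc receptors had none of 1, and housekeeping genes 1 of 6, TPI1. Among tissue-restricted lists, striated muscle genes had 4 of 14, epidermal barrier genes 3 of 7, liver-secreted proteins 3 of 9 and digestive enzymes 1 of 5. CASQ2 and TTN of muscle had a peak in both L lists across their start, with 11.0 and 10.0 in lymphoma and 8.1 and 9.85 in healthy dogs. MUC13, a mucin of the gut, had a peak in all 4 lists, at 13.6 in lymphoma L, 8.56 in healthy L and 9.46 in healthy M-H.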

How the data were processed

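MethylCap-seq peaks came as 4 lists that the authors deposited, 1 per group and label, each pooling dogs; read depth, p-values and values per dog are not given. The fold enrichment is a ratio the authors deposited, per the file headers, and its background is not stated. BWA, MACS2 and CanFam3.1 are named per the submitters' processing notes, without versions or settings. File starts count from 0 and are printed from 1. Rows with shifted gene columns (4, 2 and 3 in 3 lists) were kept as intergenic, and symbols turned into dates were restored for 51 of 54; no member was among either. Overlap meant at least 1 bp. Transcription starts were recovered from the distances, 1 start for 18111 of 18147 symbols. Biotypes came from RefSeq (UU_Cfam_GSD_1.0), matched by symbol for 1651 of 2032 member genes (81.2%), without coordinates. Wilson intervals used SciPy 1.17.1; no test between groups was possible. Named genes were the 5 highest per list, the 10 ranked highest per sharing pattern and up to 4 per gene list; other genes named were chosen after their values were seen. One gene under this rule is left unnamed but counted. Members and lists were chosen with earlier results of these data known. The overlap step was tested on simulated data. The planned check of CpG content needs sequence not used here. Alternatives changed overlap, fold enrichment, list length, windows and flags.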

Additional observations from a re-analysis of the deposited data

How the results depend on the processing

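No paired analysis was possible because the lists pool the dogs, and for the same reason no dog could be left out. Requiring 50% of the shorter peak, a gap of 1 kb to the other group, no island or shore peak within 2 kb, or allowing the enhancer flag kept the 4 shares without a counterpart within their intervals. At a fold enrichment of at least 8 they were 44.7% (lymphoma L), 32.6% (healthy L), 67.3% (lymphoma M-H) and 10.2% (healthy M-H), beside 49.2%, 31.9%, 59.7% and 6.41% of all peaks. The 2 L shares, close in the full lists, thus came apart at that threshold. At equal list length the shares were 33.8% (lymphoma) and 37.1% (healthy) in L, and 39.1% and 34.1% in M-H. The genes in 1 group only then numbered 131 (lymphoma) and 97 (healthy) in M-H, and 259 and 302 in L. Within 1 kb of the start the healthy L share was 31.1%, and these genes, from fewer members, numbered 136, 120, 195 and 17 in the order lymphoma L, healthy L, lymphoma M-H, healthy M-H. At fold 8 they were 282, 154, 322 and 10 in that order. Judging absence by promoter peaks alone, added after seeing the data, gave 438, 471 and 56 genes for lymphoma L, healthy L and healthy M-H. Median fold enrichments became 11.1, 9.65, 11.8 and 9.88 at fold 8, by construction, and 9.36, 8.3, 10.5 and 8.25 within 1 kb of the start. With fold 8, also added, an M-H peak of the same group was found for 18.2% of healthy L members (20.4% before), and an L peak for 82.4% of lymphoma (88.2%) and 65.2% of healthy M-H members (71.7%). Unknown depth, the floor at 6 and 1 pooled list per group limit all shares.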

Other observations

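A few further genes, chosen after their values were seen, are described here by value only. All 6 glyceraldehyde-3-phosphate dehydrogenase-like genes with a promoter peak were members, beside 27.6% of all genes with one. Their 5 loci each had a peak in both L lists and none in healthy M-H. Of all 2075 member loci, 20.3% had peaks in both L lists alone and 10.9% in all lists but healthy M-H. The healthy M-H list held only 381 members, so most member loci lack a peak there, and 5 loci are too few to read a pattern from. On the X chromosome the histone gene LOC491818 had peaks in all 4 lists, at 14.0 in lymphoma L, 8.59 in healthy L, 11.3 in lymphoma M-H and 6.47 in healthy M-H. Transfer RNA genes were members in 9 of 40 cases (22.5%), near the 27.6% of all genes with a promoter peak. Of their 15 loci, 5 were in lymphoma lists only, 4 in healthy lists only and 2 in all 4. Over all member loci these shares were 23.2%, 26.0% and 13.3%, and 15 loci are too few to read a split from. RPL37, a ribosomal protein gene, had the highest healthy L value among named loci found in healthy L alone, at 13.5 across the annotated start. These genes have similar copies elsewhere in the genome, so their values are uncertain.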
